A study of Mus musculus with 6 samples.

Results

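The keratins of simple epithelia and the genes of epithelial cell junctions were followed in 3 mouse induced pluripotent stem (iPS) cell lines. The set held 10 genes named by symbol: Krt7, Krt8, Krt18 and Krt19, the claudins Cldn3, Cldn4, Cldn6 and Cldn7, and the adhesion genes Epcam and Cdh1. All 10 had a probe on the array, with 2 probes each for Krt7 and Krt8, so that 12 of 41174 gene probes and 10 of 18295 named genes were members. The lines, iPS1, iPS4 and iPS5, were each grown from 1 picked GFP-positive colony of OG2 mouse embryonic fibroblasts, which carry a GFP reporter driven by Oct4. These fibroblasts had received pMX retroviruses for 16 genes, namely c-Myc, Klf4, Oct4 and Sox2 together with 12 genes of the general transcription factor TFIID. These were TBP, the histone-fold subunits TAF3, TAF4, TAF4b, TAF6 and TAF9 to TAF13, and the further subunits TAF5 and TAF7. The comparison RNA was a pool from ES cells, and the protocol names OG2 ES cells, which carry the same reporter without the viruses. iPS and ES cells shared the culture medium with LIF and the irradiated fibroblast feeders, whose RNA may be present in either. No sample analysed here received the 4 reprogramming factors without the TFIID subunits, and each line carried the viruses while the ES pool did not, so that line, reprogramming and viruses cannot be told apart.

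Every array was hybridised with RNA of 1 line in one dye and RNA of the ES pool in the other, and each line had 2 arrays with the dyes exchanged. Values are log2 ratios of iPS over ES, so that a negative value means less signal from the iPS line. The line was the replicate (n = 3), since nothing states that the 2 arrays of a line had separate RNA, and the ES pool was 1 sample whose own spread is not in any test. A channel counted as above background where it exceeded the 95th percentile of a dim control reporter. By this measure 65.18% to 87.08% of gene probes were detected in a channel for iPS1 and iPS4, and 47.44% to 65.69% for iPS5. All 9 ES identity markers measured were above background in both channels on every array. Nanog at 0.65 ± 0.131 (SD, n = 3 lines) and Sall4 at 0.65 ± 0.019 were higher in the lines (limma, adjusted p = 0.0264 and 0.0201). Zfp42 at -2.74 ± 0.383 and Fgf4 at -0.80 ± 0.239 were lower (adjusted p = 0.0201 and 0.036).

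Keratins are intermediate filament proteins that assemble from a type II and a type I partner. KRT8 and KRT7 are type II chains and KRT18 and KRT19 are type I chains, and Krt8 with Krt18 is the first keratin pair made in the mouse embryo, where it is strong in trophectoderm. Claudins are membrane proteins that form the strands of tight junctions. CDH1, or E-cadherin, holds neighbouring cells together at adherens junctions, and EPCAM is a surface protein of epithelial cells and of pluripotent cells. ES cells form compact colonies held together by E-cadherin, and fibroblasts pass from a mesenchymal to an epithelial state early in reprogramming.

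Some members are neighbours in the genome. On mouse build GRCm38.p6, Krt8 (chr15:101996711-102004342, minus strand) and Krt18 (chr15:102028216-102032026, plus strand) point away from each other across 23.9 kb that hold 2 genes, neither of them protein-coding. Cldn4 (chr5:134945123-134946934, minus strand) and Cldn3 (chr5:134986214-134987476, plus strand) do so across 39.3 kb with 0 annotated genes between. The 250 bases before the gene start, from RefSeq on GRCm38.p6, were available for 8 of the 10 members. Krt19 and Cdh1 had none in the table. The E-box CAGGTG is the form bound by the Snail and Zeb repressors of epithelial genes. Searched on either strand (CACCTG on the other), it lay in the windows of 7 of these 8 members, all but Cldn3, and in 17.2% of 32841 promoter windows of the same length. The GC box GGGCGG, likewise searched on either strand, lay in 6 of 8 members and in 32.7% of windows. The AP-1 motif TGANTCA, which reads alike on either strand, lay in Cldn4 alone and in 6.75% of windows. The TATA box, searched as TATAAA on either strand, lay in 0 of the 8 members and in 12.4% of windows. The CCAAT box, likewise searched on either strand, lay in 0 of the 8 and in 33.9% of windows. No match of one motif overlapped a match of another in these windows, and a match describes the letters and not a bound site. The 6 windows below are those of the divergent keratin pair, the divergent claudin pair, and Epcam and Cldn7, which had unlike ratios; capitals mark the E-box on either strand, and each is written 5′ to 3′ on the gene's own strand.
Krt18 promoter (chr15:102027966-102028215, plus strand): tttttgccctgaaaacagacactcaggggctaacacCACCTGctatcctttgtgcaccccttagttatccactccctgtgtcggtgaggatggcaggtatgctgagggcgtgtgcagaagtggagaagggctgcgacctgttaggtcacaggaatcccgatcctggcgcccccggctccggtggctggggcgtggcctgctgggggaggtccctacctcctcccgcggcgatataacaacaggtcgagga
Krt8 promoter (chr15:102004343-102004592, minus strand): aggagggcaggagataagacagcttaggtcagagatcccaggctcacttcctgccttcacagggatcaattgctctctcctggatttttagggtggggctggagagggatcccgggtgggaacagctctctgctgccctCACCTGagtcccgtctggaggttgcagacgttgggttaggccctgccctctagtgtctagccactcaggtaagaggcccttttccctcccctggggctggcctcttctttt
Cldn4 promoter (chr5:134946935-134947184, minus strand): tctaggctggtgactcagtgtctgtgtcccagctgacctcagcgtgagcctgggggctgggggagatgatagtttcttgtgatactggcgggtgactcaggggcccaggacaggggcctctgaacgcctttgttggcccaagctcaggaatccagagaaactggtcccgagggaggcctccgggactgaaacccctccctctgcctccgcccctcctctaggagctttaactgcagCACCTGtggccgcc
Cldn3 promoter (chr5:134985964-134986213, plus strand): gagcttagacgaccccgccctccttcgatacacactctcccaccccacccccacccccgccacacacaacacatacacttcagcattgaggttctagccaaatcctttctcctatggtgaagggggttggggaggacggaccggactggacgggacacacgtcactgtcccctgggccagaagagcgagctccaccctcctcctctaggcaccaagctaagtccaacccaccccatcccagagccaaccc
Cldn7 promoter (chr11:69965171-69965420, plus strand): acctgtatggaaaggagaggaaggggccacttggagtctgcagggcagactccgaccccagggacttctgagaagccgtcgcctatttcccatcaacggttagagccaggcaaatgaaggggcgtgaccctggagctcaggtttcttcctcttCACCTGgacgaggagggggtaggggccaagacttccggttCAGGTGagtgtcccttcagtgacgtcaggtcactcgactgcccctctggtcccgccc
Epcam promoter (chr17:87635729-87635978, plus strand): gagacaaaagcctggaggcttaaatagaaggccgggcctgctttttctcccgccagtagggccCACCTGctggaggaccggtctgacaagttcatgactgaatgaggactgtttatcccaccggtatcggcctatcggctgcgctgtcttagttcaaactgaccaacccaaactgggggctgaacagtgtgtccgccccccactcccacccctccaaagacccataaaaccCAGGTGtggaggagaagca
The E-box began at position -214 of Krt18, -111 of Krt8 and -14 of Cldn4, counted from the base before the gene start as -1. Epcam held 2 such boxes in this window and Cldn7 held 2 in the window shown and 0 in a second window that starts at another of its transcripts. Cldn3, with 0, and Cldn4, with 1, were both called lower in the iPS lines below.

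Across the 3 lines, 5 of the 10 genes were lower than in the ES pool: Krt7, Krt8, Krt18, Cldn3 and Cldn4 (limma on 3 line means against 0, two-sided, adjusted over all probes, threshold 0.05). Of all 18295 genes, 4.95% were called lower, 5.21% higher and 10.2% in either direction. By limma 0 of the 10 were called higher, and 9 had an unadjusted p under 0.05, each with a mean below 0. Of all 18295 genes, 6253 had an unadjusted p under 0.05 in either direction. The count of 5 became 1 without replicate 1 of iPS5, 3 without replicate 1 of iPS4, 0 without iPS1 or without iPS4, 2 without iPS5, and 0 when the ES pool was given the same spread as a line. The ratio was below 0 on all 6 arrays for 8 of the 10 genes, the exceptions being Cldn7, with 5 of 6 arrays below 0, and Epcam. The median ratio of the 10 genes was -0.60, against -0.005 over all genes. The 10 genes were chosen with earlier results of these data known. Their counts and medians beside those of all genes therefore describe the set and do not test it. The median was -0.31 in iPS1, -0.74 in iPS4 and -0.77 in iPS5, while the all-gene median was -0.0076, -0.0092 and -0.0002 in these lines. In bulk RNA, fewer cells that express a gene and less of its RNA per cell cannot be told apart.

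**Figure D1:**
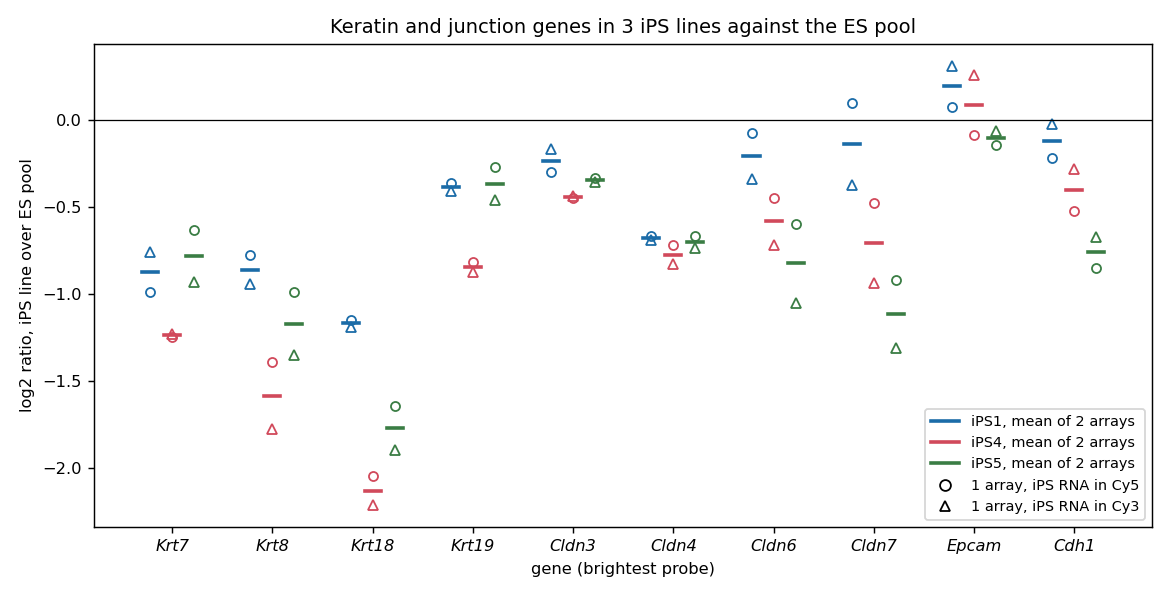
Log2 ratios of iPS line over ES pool for the 10 genes, with the brightest probe for each gene. Bars are means of the 2 arrays of a line and points are single arrays, with circles for iPS RNA in Cy5 and triangles for Cy3; the keratins lie below 0 on every array, and Epcam lies on both sides of 0.

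Krt18, the type I partner of KRT8, had the lowest ratio of the set. Its ratio was -1.15 and -1.19 on the 2 arrays of iPS1, -2.05 and -2.21 on those of iPS4, and -1.89 and -1.64 on those of iPS5. The arrays of a line lay close together and those of different lines did not overlap. The mean was -1.69 ± 0.486 (SD, n = 3 lines; adjusted p = 0.0335), which is 3.22-fold more signal in the ES pool, and Krt18 ranked 22 from the lowest of 18295 genes. By line the ES signal was 2.24-fold higher against iPS1, 4.37-fold against iPS4 and 3.41-fold against iPS5. With a background offset of 0 the log2 ratio went from -1.77 to -2.70 in iPS5 and from -2.13 to -2.39 in iPS4, which turned the order of these lines. The mean was -1.61 with iPS RNA in Cy5 and -1.76 with iPS RNA in Cy3, so either dye orientation gave the same sign. Before correction, the iPS signal of Krt18 on the arrays of iPS5 was 83.4 and 77.7, close to background limits of 61.6 and 43.8, while the ES signal was 549 and 172.

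Krt8, the type II partner, was the next lowest. Its first probe read -0.78 and -0.94 in iPS1, -1.39 and -1.78 in iPS4, and -1.35 and -0.99 in iPS5. All 6 arrays were below 0, and the mean of -1.20 ± 0.362 (adjusted p = 0.0357) ranked 63 from the lowest. The second Krt8 probe averaged -1.31 ± 0.41 (adjusted p = 0.0374), with -0.93, -1.74 and -1.25 in iPS1, iPS4 and iPS5. The 2 probes therefore placed the lines in the same order.

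Krt7, a type II keratin of simple and ductal epithelia, read -0.99 and -0.76 in iPS1, -1.25 and -1.23 in iPS4, and -0.93 and -0.63 in iPS5. The mean was -0.96 ± 0.241 (adjusted p = 0.0305), a rank of 123. With a background offset of 0 it was -1.61, and the iPS5 value went from -0.78 to -2.09. A second Krt7 probe averaged -0.33 ± 0.149 and was not called (adjusted p = 0.0691), so the 2 probes agreed in sign on every array and differed in size. The Krt7 probes were not above background in the iPS channel on replicate 1 of iPS5, where the brightest read 56.9 against a limit of 61.6. Krt19, the smallest type I keratin, read -0.36 and -0.41 in iPS1, -0.81 and -0.88 in iPS4, and -0.46 and -0.27 in iPS5. Every array was below 0, yet the mean of -0.53 ± 0.271 was not called (adjusted p = 0.0749), and the same iPS5 channel was not above background at 60.6. With offset 0 the Krt19 mean was -0.98 and its iPS5 value went from -0.37 to -1.08.

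**Figure D2:**
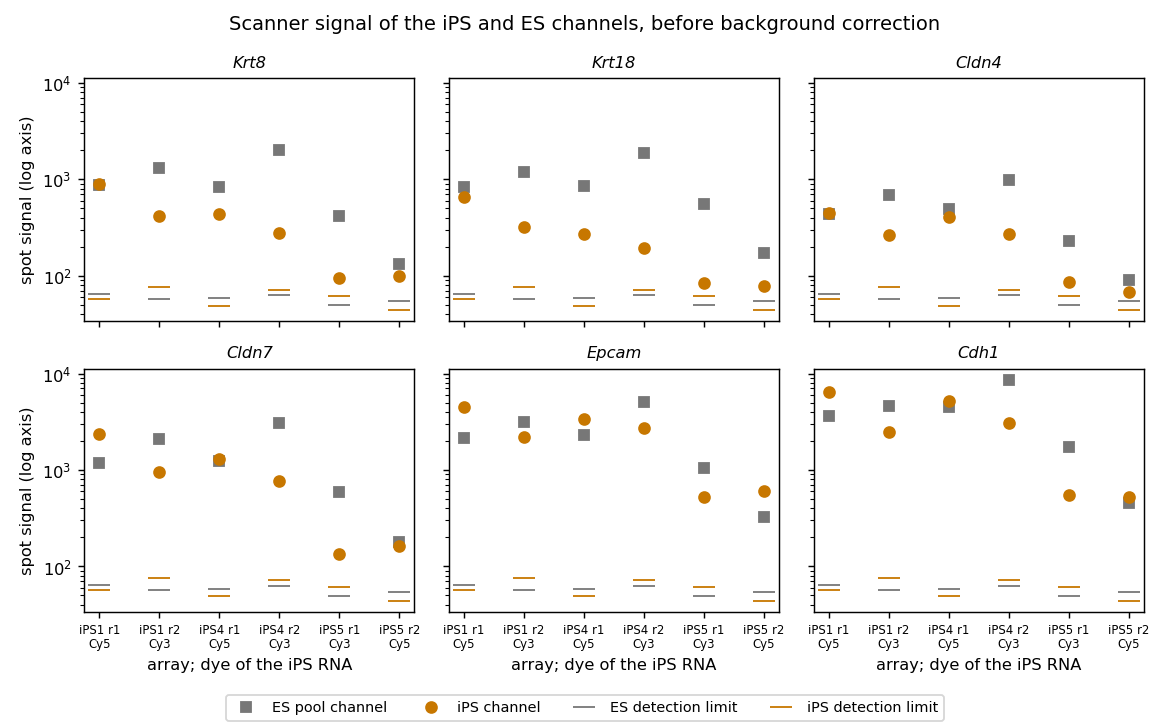
Scanner signal of the iPS channel (circles) and the ES pool channel (squares) for 6 genes on each array, on a log axis, with short bars at the background limit of each channel. The keratins and Cldn4 approach the iPS limit on the iPS5 arrays, while Epcam and Cdh1 stay well above it on all 6 arrays; channels of one array differ in dye response before normalisation.

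Of the 4 claudins, Cldn3 and Cldn4 were called lower across the lines, while Cldn6 and Cldn7 differed between lines. Cldn4, a claudin of tight epithelia, read -0.67 and -0.69 in iPS1, -0.72 and -0.83 in iPS4, and -0.74 and -0.67 in iPS5. The arrays of iPS5 overlapped those of iPS1 and iPS4, which did not overlap each other, and the SD over lines was the smallest of the 10 genes. The mean of -0.72 ± 0.0502 was called lower (adjusted p = 0.0201), and the iPS5 value of -0.70 became -1.34 with a background offset of 0. Its chromosomal neighbour Cldn3, another epithelial claudin, read -0.30 and -0.17, -0.45 and -0.44, and -0.36 and -0.34 on the arrays of the 3 lines in that order. The mean of -0.34 ± 0.104 was also called lower (adjusted p = 0.0431) and was the smallest in size of the 5 calls.

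Cldn6, a claudin of early embryonic epithelia and of ES cells, read -0.08 and -0.34 in iPS1, -0.45 and -0.72 in iPS4, and -1.05 and -0.60 in iPS5. Its mean of -0.54 ± 0.309 was not called (adjusted p = 0.0897). Cldn7, which is found along the lateral membrane of many epithelia, read 0.09 and -0.38 in iPS1, -0.48 and -0.94 in iPS4, and -1.31 and -0.92 in iPS5. Its mean of -0.65 ± 0.49 was not called (adjusted p = 0.137), with the widest spread between lines of the set. For Cldn6 and Cldn7 the array with iPS RNA in Cy3 gave the lower ratio in each line. The Cldn7 mean was -0.44 with iPS RNA in Cy5 and -0.87 in Cy3, and that of Cldn6 was -0.38 and -0.70. The ratio was below 0 in either orientation.

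Cdh1 and Epcam, the adhesion genes, parted from each other. Cdh1 read -0.22 and -0.03 in iPS1, -0.52 and -0.28 in iPS4, and -0.67 and -0.85 in iPS5. All 6 arrays were below 0, and the mean of -0.43 ± 0.321 was not called (adjusted p = 0.14). Epcam read 0.07 and 0.31 in iPS1, -0.09 and 0.25 in iPS4, and -0.06 and -0.14 in iPS5, with 3 arrays on each side of 0. Its mean was 0.06 ± 0.15 (adjusted p = 0.659), with a 95% interval of -0.13 to 0.24 that leaves out the spread of the ES pool. Epcam ranked 12936 from the lowest of 18295 genes, and the other 9 members ranked between 22 and 1140.

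The single lines were tested on all 6 arrays with a dye term, where the spread comes from duplicate arrays, which may share their RNA. In iPS1, 9 members were called lower and Epcam higher at 0.19 (adjusted p = 0.0234), where 21.2% of all genes were called lower, 21.5% higher and 42.7% in all. Of the 10 genes called in iPS1, 5 were called with a background offset of 0, 5 with median centring and 6 without the dye term, and leaving out replicate 1 or 2 of iPS1 left 5 or 6. In iPS4, 9 members were called lower, where 23.2% of all genes were. In iPS5, 9 members were called lower by their brightest probe, where 13% of all genes were. The second Krt7 probe, at -0.16 in iPS5, was not called (adjusted p = 0.0609). Epcam at 0.08 in iPS4 and -0.10 in iPS5 was not called in either (adjusted p = 0.262 and 0.242).

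The lines differed in 6 of the 10 genes: Krt8, Krt18, Krt19, Cldn6, Cldn7 and Cdh1 (limma F test among the lines, adjusted over all probes). Of all genes, 25.2% were called by this test. For Krt7 the brightest probe was not called by the F test (adjusted p = 0.056) and the second probe was (adjusted p = 0.0453). The count rests on how background and dye were treated, since it was 0 with a background offset of 0, where 0 probes of the whole array were called, and 1 with median centring or without the dye term. At an unadjusted p under 0.05, 9 members passed the F test as reported and 9 passed with offset 0, while 13478 and 8821 of all 41174 probes did.

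The order of the lines took 2 forms as processed here. All 4 keratins, Cldn3 and Cldn4 were lowest in iPS4, and Cldn6, Cldn7, Epcam and Cdh1 were lowest in iPS5 and highest in iPS1. With a background offset of 0, 9 of the 10 genes were lowest in iPS5, and with arrays scaled to a common spread 8 were. Pairs of lines were compared in the same fit, where 12% of all genes were called between iPS4 and iPS1, 23% between iPS5 and iPS1 and 13.3% between iPS5 and iPS4. Krt18 was lower in iPS4 than in iPS1 by a difference of -0.96 (adjusted p = 0.000508) and lower in iPS5 than in iPS1 by -0.60 (adjusted p = 0.00134). Krt8 showed the same differences at -0.72 and -0.31 (adjusted p = 0.00176 and 0.0216). Krt19 was lower in iPS4 than in iPS1 by -0.46 (adjusted p = 0.00532), and between iPS5 and iPS1 it differed by 0.02 (adjusted p = 0.9).

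Between iPS5 and iPS4 the signs of the differences of Krt7, Krt8, Krt18, Cldn3 and Cldn4 depended on the processing. As reported, Krt18 was 0.36 higher and Krt8 0.41 higher in iPS5 than in iPS4 (adjusted p = 0.018 and 0.0137). With a background offset of 0 these differences became -0.31 and -0.04, and with arrays scaled to a common spread -0.37 and -0.09. Krt7 was 0.46 higher in iPS5 than in iPS4 (adjusted p = 0.0487), and its difference was -0.48 with offset 0 and 0.12 with scaled arrays. The uncalled differences of Cldn3 at 0.10 and Cldn4 at 0.07 (adjusted p = 0.389 and 0.485) also turned, to -0.11 and -0.46 with offset 0, and were below 0 with scaled arrays. Which of iPS4 and iPS5 had the lower ratio therefore depended on the setting for Krt7, Krt8 and Krt18. The iPS5 arrays were the dimmest of the 3 lines. Krt19 was 0.48 higher in iPS5 than in iPS4 (adjusted p = 0.00527). That difference stayed above 0 in all 14 alternatives, from 0.22 to 0.545, but its call was lost in 6. Some alternatives, such as leaving out an array of iPS1, cannot change this difference.

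For Cldn7 the order was the same throughout. It was lower in iPS4 than in iPS1 by -0.57 (adjusted p = 0.00176), in iPS5 than in iPS1 by -0.98 (adjusted p = 0.000113), and in iPS5 than in iPS4 by -0.41 (adjusted p = 0.00626). Cdh1 stepped down in the same order, with differences of -0.28, -0.64 and -0.36 (adjusted p = 0.0206, 0.000471 and 0.00901). Cldn6 differed by -0.37 between iPS4 and iPS1 and by -0.61 between iPS5 and iPS1 (adjusted p = 0.0163 and 0.00125), and its difference of -0.24 between iPS5 and iPS4 was not called (adjusted p = 0.0636). Epcam, not called in the F test (adjusted p = 0.0594), differed by -0.30 between iPS5 and iPS1 (adjusted p = 0.0305). These 4 genes were lowest in iPS5 and highest in iPS1 under each of 14 alternatives, but the calls were less stable. Some alternatives, such as dropping the dye term, cannot change the order. The call between iPS4 and iPS1 was lost in 8 of 14 alternatives for Cdh1, 7 for Cldn6 and 3 for Cldn7, and that between iPS5 and iPS4 in 5 for Cdh1 and 5 for Cldn7. Between iPS5 and iPS1 it was lost in 6 for Epcam, 2 for Cldn6, 1 for Cldn7 and 1 for Cdh1. Cldn3 and Cldn4 did not pass the F test (adjusted p = 0.107 and 0.439), and their ranges among lines were 0.21 and 0.10.

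**Figure D3:**
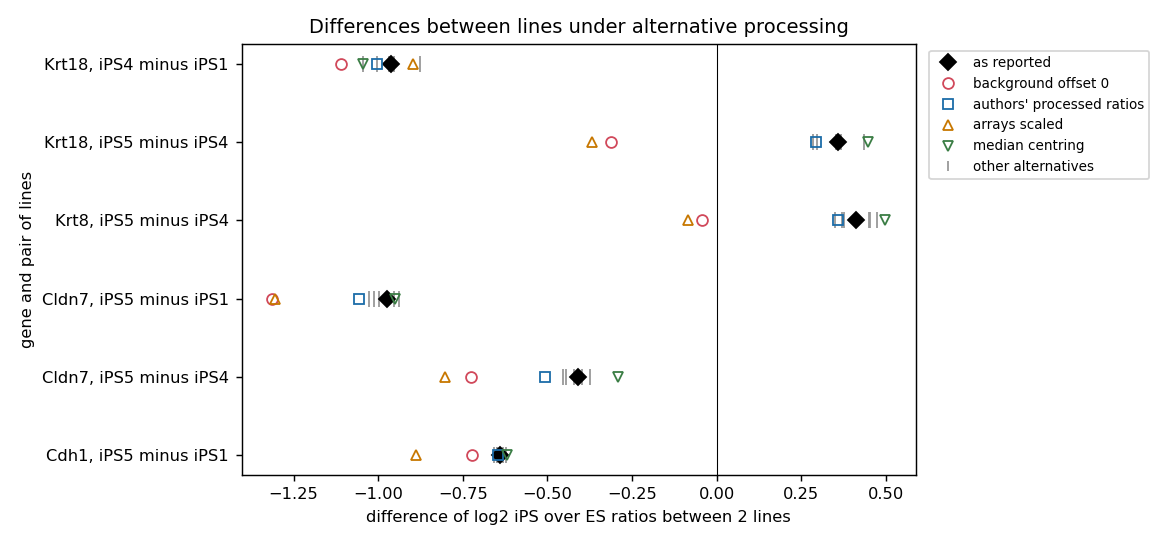
Differences between lines in the log2 ratio for 4 genes, as reported (diamonds) and under the alternative processing settings. The iPS5 minus iPS4 differences of Krt18 and Krt8 cross 0 with a background offset of 0 and with scaled arrays, while that of Cldn7 keeps its sign. The iPS5 minus iPS1 differences of Cldn7 and Cdh1 also keep their sign.

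Other genes of the same families and structures were set beside the 10. Of 12 other keratins, mainly of stratified or specialised epithelia, 6 were above background, with a list median of -0.01, and 1 was lower than in the ES pool, Krt13 at -0.36 ± 0.113 (adjusted p = 0.0431). Of 15 other claudins measured, 9 were above background, with a median of -0.001. Only Cldn9, 137 bases from Cldn6 on chromosome 17, was called among them, at -0.23 ± 0.0522 (adjusted p = 0.0437). Of 15 tight junction partners, 1 was lower, Tjp3, a scaffold beneath claudins, at -0.76 ± 0.142 (adjusted p = 0.0242), and the list median was 0.03. Of 16 adherens junction and desmosome genes, Nectin2, a cell adhesion molecule, was lower at -0.68 ± 0.174 (adjusted p = 0.0322). Ctnnb1, the beta-catenin that binds CDH1, was higher at 0.44 ± 0.0796 (adjusted p = 0.0276), as was Pkp4, a catenin relative, at 0.44 ± 0.128 (adjusted p = 0.0392). Pkp2, a desmosomal plaque protein, read -0.51 in iPS1, -0.74 in iPS4 and -1.22 in iPS5, the order seen for Cldn7 and Cdh1 (F test, adjusted p = 0.00165). Crb3, a polarity protein chosen after its values were seen, read -0.08, -0.79 and -1.16 (F test, adjusted p = 0.000994). The reverse order was read for Perp at 0.03, 0.77 and 0.98 and Ctnna1 at -0.06, 0.03 and 0.56 (F test, adjusted p = 0.000524 and 0.00191). Dsp, lowest in iPS4, read -0.08, -0.92 and -0.72 (F test, adjusted p = 0.000604). The F test called 8 of 15 tight junction partners and 8 of 16 adherens junction and desmosome genes. Of all genes it called 25.2%.

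**Figure D4:**
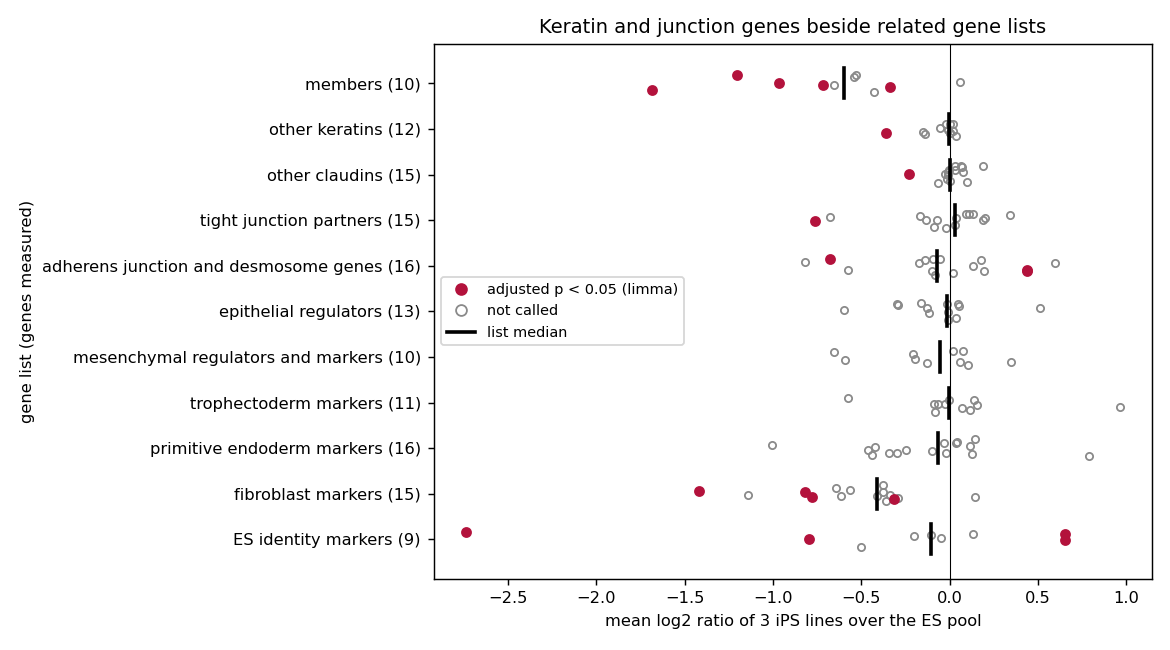
Mean log2 ratio over the 3 lines for each measured gene of the set (labelled members) and of 10 other lists; filled points were called by limma and bars are list medians. The set's median lies at -0.60, and those of the other keratins and claudins lie near 0. The set and the lists were chosen with earlier results of these data known.

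Regulators and other genes of the epithelial and mesenchymal states were read from 2 further lists. Of 13 genes listed as epithelial regulators, 0 were called across the lines by limma. Elf3, St14, Spint1 and Spint2, 4 of the 13, had an unadjusted p under 0.05, a share near that of all genes (6253 of 18295). Elf3, an epithelial ETS factor, had the smallest p, with a mean of -0.60 ± 0.261 (adjusted p = 0.0589) and was lowest in iPS4 at -0.90, as the keratins were. The F test among lines called 7 of these 13 genes, and their orders differed. Esrp1 read 0.50, 0.11 and -0.47 and Grhl1 0.29, 0.20 and -0.33 in iPS1, iPS4 and iPS5 (F test, adjusted p = 0.00105 and 0.00289). The reverse order was read for Klf5 at -0.39, 0.25 and 1.68 and Spint1 at -0.56, -0.26 and -0.08 (F test, adjusted p = 2.09e-05 and 0.00383). Of 10 mesenchymal regulators and markers, 0 were called and 3 had an unadjusted p under 0.05, again near the share of all genes. Cdh2, the N-cadherin of mesenchymal cells, averaged 0.35 ± 0.195 (adjusted p = 0.0922) and Zeb2, a repressor that binds the E-box, -0.13 ± 0.0975 (adjusted p = 0.186). The other Snail and Zeb genes of the list differed in their order of lines. Zeb1 read -0.20, 0.15 and 0.28 and Snai2 -0.15, 0.20 and 0.27 in iPS1, iPS4 and iPS5 (F test, adjusted p = 0.00545 and 0.00684). Snai1 read 0.29, -0.13 and -0.11 (F test, adjusted p = 0.00332). The F test among lines called 9 of the 10 genes of this list and 25.2% of all genes. The part of these genes in the member ratios was not tested. Twist2 averaged -0.59 ± 0.332 (adjusted p = 0.0857).

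Markers of other cells that could be in the cultures were read in the same way. Trophectoderm, a keratin-rich tissue of the embryo, was followed by 11 genes, of which 7 were above background, 0 were called and 4 had an unadjusted p under 0.05, also near the share of all genes. Its defining factor Cdx2 was above background on 2 of 6 arrays in either channel. The list medians were -0.02, 0.08 and -0.002 in iPS1, iPS4 and iPS5, with members on both sides of 0. Eomes read 1.604, 0.95 and 0.34 in these lines, Tead4 0.05, 0.17 and 0.24, and Tfap2a 0.12, 0.14 and 0.09. Hand1 read -0.79, -0.70 and -0.23. Of 16 primitive endoderm markers, 0 were called and 1 had an unadjusted p under 0.05, against 6253 of all 18295 genes. Their medians were -0.38 in iPS1, -0.39 in iPS4 and 0.14 in iPS5, so the list median was highest where Cldn7 and Cdh1 were lowest. In the single-line tests, 7 of the 16 were called higher in iPS5 and 0 lower. Of all 18295 genes, 2549 were called higher in that line and 2384 lower. Not every marker had the order of the list median. Foxa2 fell, at 1.604, 0.74 and 0.02 in iPS1, iPS4 and iPS5 (F test, adjusted p = 0.000121). Lamb1, at 0.29, -0.02 and 0.17, was also highest in iPS1. Of 15 fibroblast markers, 4 were lower than in the ES pool, where 4.95% of all genes were called lower. At an unadjusted p under 0.05 there were 14 of the 15, against 6253 of all 18295 genes. The 4 included Dcn, a matrix proteoglycan, at -1.42 ± 0.396 (adjusted p = 0.0327). The list medians were -0.73, -0.55 and -0.23 in iPS1, iPS4 and iPS5. The called members of that list did not share an order of lines. Dcn at -1.84, -1.38 and -1.05 and S100a4 at -0.39, -0.33 and -0.23 in iPS1, iPS4 and iPS5 were lowest in iPS1, as was the list median. Thy1 at -0.87, -1.03 and -0.56 and Cdh11 at -0.78, -1.01 and -0.55 were lowest in iPS4 and highest in iPS5, as Krt7 was. The part of these cells in the keratin and claudin ratios was not tested.

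Krt18 was also matched against all genes above background by the distance between their ratios in the 3 lines, a description over 3 values. Among 14339 genes outside the set, the closest were Smc1b, a cohesin subunit of meiosis, at a distance of 0.376 and Pfkp, a phosphofructokinase, at 0.399. They were followed by Maff, a small Maf factor, at 0.593, Ier3, an immediate early gene, at 0.714 and Ero1a, an oxidase of the endoplasmic reticulum, at 0.737. Krt8 was at 0.865, rank 12 of 14348 once the other members were included, and Krt7 was at rank 74. Smc1b read -1.32, -2.40 and -1.57 in iPS1, iPS4 and iPS5, which is the order of Krt18.

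The authors' deposited table gave a mean log2 ratio and a p-value per reporter from a test that is not stated. In the authors' deposited table Krt18 was at -1.75, Krt8 at -1.23, Krt7 at -1.06 and Cldn4 at -0.75, each with a p-value listed as 0. The authors' deposited table listed Cldn3 at -0.36 with a p-value of 0.011 and Krt19 at -0.58 with 0.0138. Cldn6 at -0.55, Cdh1 at -0.46 and Cldn7 at -0.66 had p-values of 0.1376, 0.3722 and 0.6258 in the authors' deposited table, and Epcam at 0.02 had a p-value of 1. These are the 4 genes whose order was iPS1, iPS4, iPS5 from high to low.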

How the data were processed

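Scanner output was deposited for each array as spot intensity, signal mean and local background median in Cy5 and Cy3, not normalized per the file headers. The authors' processed log2 ratios, 1 per spot and array, were deposited in a matrix whose normalization is not given in the sources used here. The authors' final table, as deposited, holds a mean log2 ratio and a p-value per reporter. Dye orientation came from the labels, and the sign of the correlation of raw with deposited ratios followed it. Raw intensities were background-corrected with normexp (offset 50) and normalized by loess within each array, with 4046 control spots of 45220 at weight 0, in limma 3.58.1 (statmod 1.5.0, R 4.3.3). The offset shrinks the ratios of dim spots. Of 41174 gene probes, 34186 had 1 symbol and 6988 none; 30365 symbols were current, 3726 updated by synonym and 95 not in the GRCm38.p6 table. A gene was represented by its brightest probe, and levels of different probes were not compared. A channel was above background over percentile 95 of a dim control with 604 spots per array. The number of arrays limits the precision.

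Line means of 2 opposite-dye arrays, in which the dye effect cancels, were tested against 0. Single lines, pairs and the F test used 6 arrays with a line and a dye term. P-values were Benjamini-Hochberg adjusted over all gene probes, and an adjusted p under 0.05 was a call. The test of line means and the F test were also run on simulated data, and those of single lines and pairs were not scored there. Named genes were the 10 members, up to 4 genes with the smallest p of each other list, and the 5 genes nearest to Krt18 by Euclidean distance over the line means. Further genes of the lists, such as Crb3, Zeb1 and Perp, were named after their values were seen. The members and lists were chosen with earlier results of these data known. Alternatives covered background, normalization, probe choice, the unit of replication and each array and line left out.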

Additional observations from a re-analysis of the deposited data

Results flagged for a closer look

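For 6 genes the F test among the lines was called. That test sets 1 culture per line against the spread of duplicate arrays, which may share RNA, and 0 members were called with a background offset of 0 and 1 with median centring or without the dye term. The range between the highest and the lowest line was 0.72 for Krt8, 0.96 for Krt18, 0.48 for Krt19, 0.61 for Cldn6, 0.98 for Cldn7 and 0.64 for Cdh1, in log2 units. For Krt8, Krt18 and Krt19 the lowest line was iPS4, and for Cldn6, Cldn7 and Cdh1 it was iPS5. The highest line was iPS1 in 5 of these, and for Krt19 iPS5 by a difference of 0.02 from iPS1.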

How the results depend on the processing

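With 3 lines and 1 ES pool, the count of 5 members called lower was fragile. The sign moved little, with 9 or 10 members at a mean below 0 under each of 19 alternatives. Some of these, such as counting the ES pool as a sample, cannot change a mean. All of them use the same ES pool, so they do not test whether that pool was typical. Leaving out single arrays gave 1 (without replicate 1 of iPS5) to 6 called, with 3 without replicate 1 of iPS4. Leaving out a line gave 0 without iPS1, 0 without iPS4 and 2 without iPS5; in the first 2 cases limma called 0 probes of the whole array, with 9 and 6 members at an unadjusted p under 0.05. Counting all 6 arrays as replicates, or the line as a random block, gave 9. Giving the ES pool the same spread as the lines gave 0 (5 members at an unadjusted p under 0.05, 0 probes called on the array). Krt19, not called as reported, was called in 7 of its 19 alternatives, with adjusted p from 0.0074 to 0.619.

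In iPS1 the count of 10 became 5 with offset 0, 5 with median centring and 6 without the dye term, and 5 to 10 with an array left out; iPS4 stayed at 9 and iPS5 at 8 to 10 in all 14 alternatives. The F test count of 6 became 0 with offset 0, 1 with median centring and 1 without the dye term, and 6 to 9 with an array left out. Probes called by the F test numbered 8241 as reported, 0 with offset 0 (8821 at an unadjusted p under 0.05), 640 with median centring and 1494 without the dye term. Probes called against the ES pool numbered 3161 as reported and 457 to 5881 with an array left out.

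The iPS5 minus iPS1 difference of Krt7 went from 0.09 to -0.98 with offset 0, and its iPS5 minus iPS4 difference to -0.48. The iPS5 minus iPS4 difference went to -0.044 with offset 0 and -0.086 with scaled arrays for Krt8, and to -0.31 and -0.37 for Krt18. The cause was not tested. Of the 4 keratins, 1 was lowest in iPS4 with offset 0 and 2 with scaled arrays. The replicate numbers follow accession order and pair no samples across lines, so no pairing by replicate number was used. Slide or scan as a block was not run, since neither was found in the files used here. The array numbers in the sample titles fall into 2 runs with 1 array of each line, and these coincide with dye orientation, so that the dye term covers both and they cannot be told apart.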
